A study of Homo sapiens with 4 samples.

Results

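PLCB1, PDE10A and LPAR4 encode proteins at 3 steps of second messenger signalling, and their transcripts were compared between the Baz2B-KO line and the parental Hap1 control line. Transcripts of the phospholipase gene PLCB1 and the phosphodiesterase gene PDE10A were lower on both Baz2B-KO arrays than on both control arrays, whereas those of the lysophosphatidic acid receptor gene LPAR4 were higher. These 3 genes were selected on their log2 fold change and its p on the same 4 arrays, so their values are given as a description and without a test. Each gene has 1 named probe set, which makes 3 of the 53617 on the array, where 10473 genes were tested in all. LPAR4 is named by the platform annotation, and PLCB1 and PDE10A are named only by the supplementary table of the study, of which the rows of lowest p were held. Any further probe set of PLCB1 or PDE10A with a higher p would therefore have no name here. All 3 probe sets passed the intensity filter, a log2 intensity above 3.5 on at least 2 arrays. LPAR4 passed it only through the Baz2B-KO arrays, so a difference of this gene was needed for it to be counted at all.

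The human Hap1 line is nearly haploid and derives from KBM-7, a line of chronic myelogenous leukaemia. The Baz2B-KO line was derived from it by CRISPR/Cas9, with a short deletion in a coding exon of BAZ2B. BAZ2B encodes a regulatory subunit of ISWI chromatin remodeling complexes. Total RNA of both lines, grown in IMDM with foetal calf serum and trypsinized, was hybridised to Affymetrix Human Gene 2.0 ST arrays, 2 arrays per line. No source states in words whether both arrays of a line stand for separate cultures. In the supplementary table, the names of the arrays numbered 1 of both lines share a mark and those numbered 2 share another, which is not explained there and may or may not stand for separate cultures. The p-values below measure only the spread between arrays, which may be technical. With 1 edited and 1 parental line, the loss of Baz2B and other differences between the lines cannot be told apart. The BAZ2B transcript itself was not analysed here. Bulk RNA cannot tell a lower transcript level per cell from fewer cells that express the gene.

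Second messengers are small molecules that carry a signal from a receptor at the membrane into the cell. Receptors coupled to the G protein Gq activate the beta-class phospholipases C, which split the membrane lipid PIP2 into IP3, a signal for calcium release, and diacylglycerol, an activator of protein kinase C. Adenylyl and guanylyl cyclases make cyclic AMP and cyclic GMP, and the cyclic nucleotide phosphodiesterases break them down. Lysophosphatidic acid (LPA) is a signalling lipid present in serum that acts on a family of G protein-coupled receptors. PLCB1 and PDE10A are best known from the brain, where PDE10A is abundant in the medium spiny neurons of the striatum.

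To give the context of the genes that moved in opposite directions, the DNA before an annotated start of PDE10A and of LPAR4 is shown here. These 2 of the 3 genes were matched by symbol in the RefSeq promoter table of GRCh38.p14. The PDE10A stretch lies at chr6:165663242-165663491 on the minus strand, the first of 2 starts listed for this gene, and the LPAR4 stretch at chrX:78747470-78747719 on the plus strand. Each holds the 250 bases before the start, 5′ to 3′, and capitals mark matches to 4 motifs searched on either strand. For the CRE half-site, the core that CREB-type factors read, the letters were TGACG. For the promoter element called the CCAAT box they were CCAAT. For the GC box, which factors of the Sp1 type read, they were GGGCGG. For the TATA box, the element that places the start of transcription in some promoters, they were TATAAA.
PDE10A: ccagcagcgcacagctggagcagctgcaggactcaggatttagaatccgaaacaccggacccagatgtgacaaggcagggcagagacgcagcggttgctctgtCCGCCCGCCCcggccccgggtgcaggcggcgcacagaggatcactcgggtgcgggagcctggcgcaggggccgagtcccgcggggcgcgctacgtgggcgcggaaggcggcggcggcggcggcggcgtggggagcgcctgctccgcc
LPAR4: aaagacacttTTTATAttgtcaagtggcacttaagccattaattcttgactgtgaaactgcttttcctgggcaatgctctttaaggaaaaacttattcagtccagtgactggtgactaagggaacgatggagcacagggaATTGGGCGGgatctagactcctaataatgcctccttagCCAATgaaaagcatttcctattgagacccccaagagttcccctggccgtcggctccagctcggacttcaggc
The PDE10A stretch was GC-rich, with 73.6% G or C and 31 CpG dinucleotides, against medians of 58% and 11 over the 35116 stretches of the same length in the table. It held 2 GC boxes, which overlap each other, and none of the other 3 motifs. The second start of PDE10A was alike in composition, with 71.2% G or C and 24 CpG dinucleotides. The LPAR4 stretch had 46.4% G or C and 5 CpG dinucleotides, a lower GC content than most others. It held 2 CCAAT boxes, of which 1 overlaps its single GC box. It also held a match to the TATA box letters on the opposite strand, 240 bases before the start. Over all stretches, 42.6% held a GC box, 32% a CCAAT box, 21.2% a CRE half-site and 10.7% a TATA box. A match of letters is a description of the sequence and says nothing of whether a factor binds there.

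PLCB1 encodes a phospholipase C that acts downstream of Gq-coupled receptors. The probe set of PLCB1 (16911283) had a log2 intensity of 5.53 and 5.59 on the control arrays and of 4.55 and 4.34 on the Baz2B-KO arrays. The arrays of the 2 lines did not overlap, and the lowest control stood well above the highest Baz2B-KO array. Control arrays had a mean of 5.56 ± 0.039 (SD, n = 2), and Baz2B-KO arrays one of 4.45 ± 0.149 (SD, n = 2). This is a log2 fold change of -1.11 (standard error 0.120), or 2.16-fold lower. The 4 differences between a Baz2B-KO array and a control array lay between -1.24 and -0.98, while the arrays within a line differed by 0.055 in the control and 0.210 in Baz2B-KO.

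PDE10A encodes a phosphodiesterase that breaks down both cyclic AMP and cyclic GMP. Its probe set (17025523) had a log2 intensity of 5.68 and 5.39 on the control arrays and of 3.74 and 3.43 on the Baz2B-KO arrays. PDE10A was thus above the limit on both control arrays and near the limit of 3.5 in Baz2B-KO, with 1 of the 2 Baz2B-KO arrays below it. The means were 5.53 ± 0.203 and 3.58 ± 0.220 (SD, n = 2 each), a log2 fold change of -1.95 (standard error 0.153), or 3.86-fold lower. The differences between arrays of the 2 lines lay between -2.25 and -1.65, against gaps of 0.287 between the controls and 0.312 between the Baz2B-KO arrays. RMA, the normalization used, compresses differences near the background, so that the fall of PDE10A may be understated.

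LPAR4 encodes an LPA receptor of the P2Y-like class, which is distinct in sequence from the older Edg class of LPA receptors. Its probe set (17105069) had a log2 intensity of 3.23 and 3.25 on the control arrays and of 4.82 and 4.42 on the Baz2B-KO arrays. Both controls lay under the intensity limit and both Baz2B-KO arrays above it. The means were 3.24 ± 0.0096 and 4.62 ± 0.280 (SD, n = 2 each), a log2 fold change of 1.38 (standard error 0.148) on the measured values. Since both controls lay under the limit, the fold is given as a lower bound: taken against the limit of 3.5, the Baz2B-KO mean was at least 2.17-fold higher. LPAR4 had the widest gap between the Baz2B-KO arrays of the 3 genes, 0.396, and the narrowest between the controls, 0.0136. Since RMA compresses differences near the background, the spread of these controls, and the standard error that uses it, may be understated.

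**Figure D1:**
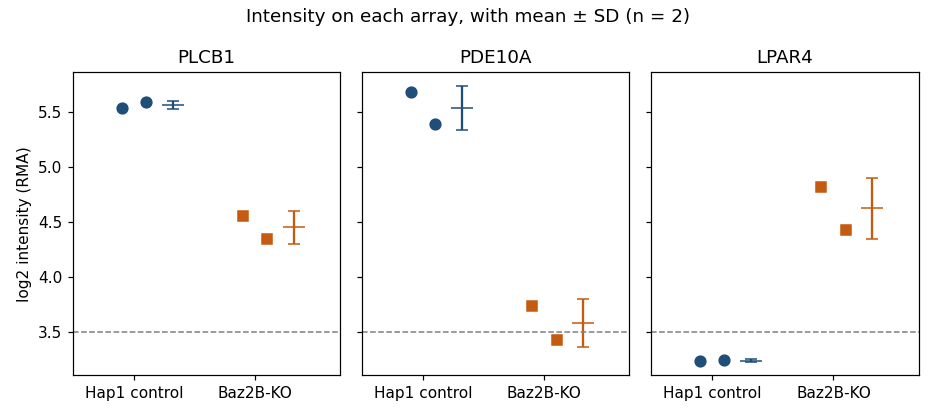
Log2 intensity (RMA) of PLCB1, PDE10A and LPAR4 on each of the 4 arrays, with circles for the Hap1 control, squares for Baz2B-KO, and the mean ± SD (n = 2) beside the points of each line. The dashed line is the intensity limit of 3.5: both LPAR4 controls and 1 Baz2B-KO array of PDE10A lie under it, and the 2 lines do not overlap for any of the 3 genes.

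Non-overlapping arrays alone are common with 2 arrays a line: 21.9% of the 11235 tested probe sets were higher and 15.9% lower in this sense. By size, of the 11235 tested probe sets, 26 had a larger fall than PLCB1 and 8 a larger fall than PDE10A, and of the other 11234 there were 7 with a larger rise than LPAR4. PLCB1 and PDE10A are themselves outside the tested probe sets. Among all 27722 retained probe sets, with or without a gene name, 130 had a larger fall than PLCB1, 22 a larger fall than PDE10A and 18 a larger rise than LPAR4. Among tested probe sets whose mean intensity lay within 0.5 of the gene, 14 of 2425 had a log2 fold change at least as large in size as PLCB1, 5 of 2441 as PDE10A and 5 of 2482 as LPAR4. These ranks describe the genes, which were chosen for their change, and the ranks of LPAR4 use control values under the limit.

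**Figure D2:**
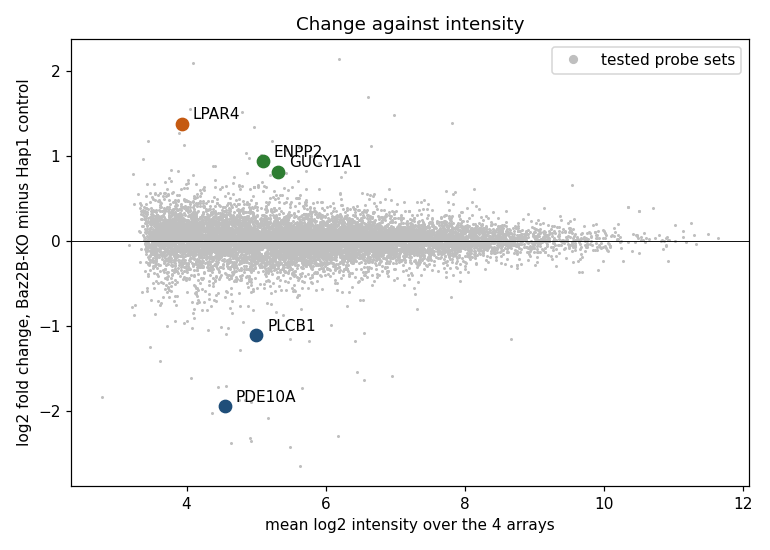
Log2 fold change (Baz2B-KO minus Hap1 control, vertical axis) against the mean log2 intensity over the 4 arrays (horizontal axis), with grey points for the 11235 tested probe sets. PDE10A (-1.95) and PLCB1 (-1.11) lie below the main cloud and LPAR4 (1.38) above it, together with ENPP2 (0.94) and GUCY1A1 (0.81).

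The other phospholipases C were examined next. Of the remaining beta-class genes, PLCB4 was named, again only by the supplementary table. PLCB4, which lies close to PLCB1 on chromosome 20, had 5.09 and 4.89 on the control arrays and 4.60 and 4.42 on the Baz2B-KO arrays. Its log2 fold change of -0.48 (95% interval -0.78 to -0.18) did not pass the test (adjusted p = 0.249 from limma). PLCE1, which encodes a phospholipase C that responds to Ras family GTPases, had 5.06 and 5.13 in the control and 5.68 and 5.71 in Baz2B-KO. Its log2 fold change was 0.60 (95% interval 0.35 to 0.86), opposite in sign to PLCB1, with an adjusted p of 0.0793 from limma. PLCG2, a phospholipase activated by tyrosine kinases and best known from blood cells, had a log2 fold change of -0.28 (adjusted p = 0.460 from limma). PLCB4, PLCE1 and PLCG2 were named because their p was low, and thus are not a fair sample of the family. PLCL2, which encodes a phospholipase C-like protein without catalytic activity, was the only member of the family tested through the platform annotation, with a log2 fold change of 0.03 (95% interval -0.24 to 0.30). PLCL1 lay under the limit on all 4 arrays.

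Of the 24 cyclic nucleotide phosphodiesterase genes listed, 3 were tested through the platform annotation: PDE7A, PDE8A and PDE9A. The cyclic AMP-specific PDE7A and PDE8A had log2 fold changes of -0.02 (95% interval -0.35 to 0.32) and 0.00 (95% interval -0.29 to 0.30). The cyclic GMP-specific PDE9A had 5.08 and 5.05 in the control and 4.87 and 4.83 in Baz2B-KO, that is, -0.21 on the log2 scale (adjusted p = 0.606 from limma). None of the 3 passed the test. Their intervals do not reach the size of the fall of PDE10A, which the choice of PDE10A for its change on these arrays makes likely. The cyclic AMP-specific PDE4A and PDE4C and the photoreceptor gene PDE6B, named only by the supplementary table, had log2 fold changes of 0.33, 0.24 and 0.37. All of these were above 0 and did not pass the test (adjusted p between 0.452 and 0.531 from limma). PDE7B, PDE8B and PDE11A lay under the limit on all 4 arrays, between 1.97 and 3.47.

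Of the 6 LPA receptor genes, 4 were matched to a probe set here (not LPAR2 and LPAR5), and of these LPAR3 was the only one besides LPAR4 above the limit. LPAR3, a receptor of the Edg class, had 7.14 and 7.01 in the control and 6.75 and 6.69 in Baz2B-KO. Its log2 fold change of -0.36 (95% interval -0.62 to -0.09) was opposite in sign to LPAR4 and did not pass the test (adjusted p = 0.348 from limma). LPAR6, the closest relative of LPAR4 among the LPA receptors, lay between 2.27 and 2.56 on the 4 arrays. The 2 probe sets of LPAR1 lay between 2.44 and 2.82. These genes were thus under the limit in both lines, and their differences were not tested.

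**Figure D3:**
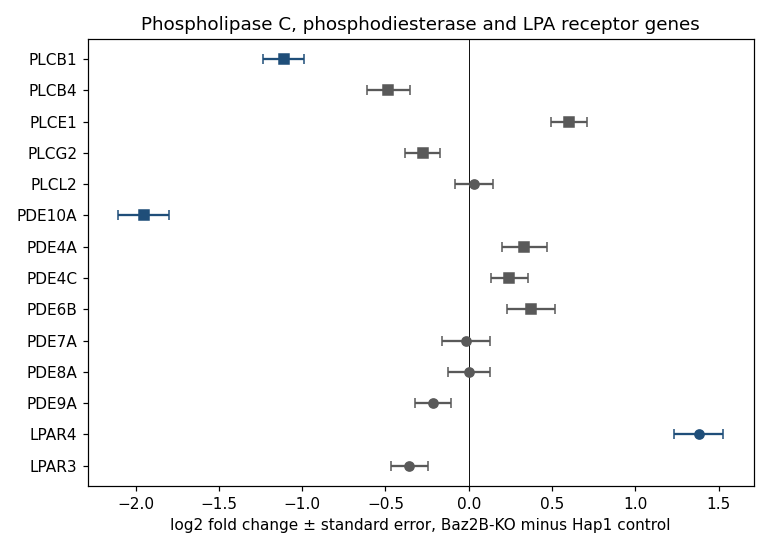
Log2 fold change (Baz2B-KO minus Hap1 control) with its standard error for the phospholipase C, phosphodiesterase and LPA receptor genes above the intensity limit. Blue marks PLCB1 (-1.11), PDE10A (-1.95) and LPAR4 (1.38), and grey the other genes. Circles are genes named by the platform annotation and squares those named only by the supplementary table. No grey point reaches the size of a blue one, which the choice of the blue genes by their change makes likely. The LPAR4 value uses control arrays under the limit.

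Of the genes around these families, ENPP2 rose in Baz2B-KO. ENPP2 encodes autotaxin, the secreted enzyme that makes LPA from lysophosphatidylcholine. Its probe set had 4.66 and 4.61 on the control arrays and 5.63 and 5.50 on the Baz2B-KO arrays. All 4 arrays lay above the limit and the lines did not overlap, and the log2 fold change was 0.94 (standard error 0.112, 95% interval 0.67 to 1.20, adjusted p = 0.0158 from limma). The call was lost when all 27722 retained probe sets were tested (adjusted p = 0.165) and without any 1 of the 4 arrays (adjusted p between 0.0632 and 0.207), with values from 0.00702 to 0.207 over all settings. Of 10 tested genes for the metabolism of LPA and sphingosine 1-phosphate, ENPP2 was the only one to pass, with a median log2 fold change of -0.08. PLPP3, a phosphatase that degrades LPA, had -0.25 (adjusted p = 0.626 from limma), and the phospholipase D gene PLD1, named only by the supplementary table, -0.32 (adjusted p = 0.459 from limma).

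In all, 63 of 204 listed genes of these pathways were tested, leaving out the 3 chosen genes. Of these 63, 1 was higher (ENPP2), none was lower and 62 did not pass the limma test at an adjusted p under 0.05, with 7 at an unadjusted p under 0.05. Over all 11235 tested probe sets, 0.276% were higher and 0.392% lower, and 9.85% (1107) had an unadjusted p under 0.05, the background of this count and of the unadjusted counts of single lists. A single called gene among 63 cannot be read as more than this background. The median log2 fold change was 0.02 both for the 63 genes and over all tested probe sets.

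Among the enzymes that make cyclic nucleotides and the proteins that respond to them, GUCY1A1 was near the threshold. GUCY1A1, which encodes the alpha subunit of the nitric oxide-sensitive guanylyl cyclase, had 4.94 and 4.87 in the control and 5.86 and 5.59 in Baz2B-KO. Its log2 fold change was 0.81 (standard error 0.129), with an adjusted p of 0.0499 from limma. This gene was named only by the supplementary table, for its low p, and the call was lost with no intensity filter (adjusted p = 0.107), with all retained probe sets (0.302), with a block for the replicate number (0.0779) and without any 1 array (0.0817 to 0.304). ADCY1, the calcium-stimulated adenylyl cyclase, had 4.84 and 4.77 in the control and 5.44 and 5.33 in Baz2B-KO, that is, a difference of 0.58 on the log2 scale (95% interval 0.32 to 0.84). POPDC3, a membrane protein of the Popeye family that binds cyclic AMP, had 5.05 on both control arrays and 4.54 and 4.35 in Baz2B-KO, that is, a difference of -0.61 on the log2 scale (95% interval -0.89 to -0.34). Neither passed (adjusted p = 0.101 for both, from limma). Of 13 tested genes in this list, 0 passed and 2 had an unadjusted p under 0.05, where 9.85% of all tested probe sets did, with a median log2 fold change of 0.06. The natriuretic peptide receptor gene NPR2 (0.37) and the CREB family gene ATF1 (0.26), named only by the supplementary table, did not pass either.

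The branch of IP3, diacylglycerol and protein kinase C, which lies downstream of PLCB1, held 13 tested genes. None passed, none had an unadjusted p under 0.05, and their log2 fold changes lay between -0.20 for the kinase gene PRKD3 and 0.19 for CDS1, which encodes an enzyme of phosphatidylinositol resynthesis. The supplementary table named 4 more genes of this branch: the protein kinase C gene PRKCQ (-0.44), the diacylglycerol kinase genes DGKQ (0.42) and DGKG (0.29) and the IP3 receptor gene ITPR2 (0.35). None of the 4 passed (adjusted p between 0.186 and 0.520 from limma). PRKCQ was above the intensity limit only on the control arrays (3.60 and 3.61), and DGKG only on the Baz2B-KO arrays (3.82 and 3.64). These 2 genes thus needed a difference to pass the filter, and their other line lay under the limit.

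Receptor and G protein genes upstream of the second messengers did not pass the test either. Of 4 tested genes for sphingosine 1-phosphate and P2Y-like receptors, S1PR2 had a log2 fold change of -0.44 (adjusted p = 0.348 from limma) and S1PR4 one of 0.21 (adjusted p = 0.699). Both probe sets of the ADP receptor gene P2RY1, named only by the supplementary table for their low p, had a log2 fold change of 0.50. Neither passed (adjusted p = 0.214 and 0.286 from limma). The dimmer probe set was near the intensity limit of 3.5 in the control, at 3.51 and 3.23. The G protein alpha subunit genes GNA12 (-0.10) and GNAS (0.04) were tested and did not pass, nor did GNAO1 (-0.28), named only by the supplementary table. Of 10 tested RGS genes, whose proteins speed up the shutdown of G protein signals, RGS5 had -0.39 (adjusted p = 0.325 from limma) and RGS3 0.20 (adjusted p = 0.702), and 0 passed, with 1 at an unadjusted p under 0.05.

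Genes switched on by the cyclic AMP-responsive factor CREB did not pass the test. Of 7 tested, 0 were called and 1 had an unadjusted p under 0.05 in limma, with a median log2 fold change of 0.00. The immediate early gene FOS had -0.61 (adjusted p = 0.247 from limma). Its Baz2B-KO arrays lay below its controls, but its dimmer probe set had 0.18. FOSB had 0.18 and, on its dimmer probe set, 0.21.

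The position of the 3 genes was examined with the 5 nearest tested genes on each side in the RefSeq order. Annotated genes without a tested probe set were skipped. Up to 47 annotated genes thus lay between PLCB1 and a neighbour, up to 60 for PDE10A and up to 50 for LPAR4. None of the 10 neighbours of PLCB1 on chromosome 20 passed, and their log2 fold changes lay between -0.18 and 0.34, with TMX4 (0.15) and ANKEF1 (0.34) nearest. PLCB4, named outside the tested table, lies between PLCB1 and ANKEF1, with 7 annotated genes between it and PLCB1. It is thus not among the 10, and its log2 fold change of -0.48 lay below their range, in the same direction as PLCB1. PLCB4 did not pass either (adjusted p = 0.249 from limma). None of the 10 neighbours of PDE10A on chromosome 6 passed, with log2 fold changes between -0.30 and 0.19. The nearest tested, the non-coding genes CAHM (-0.09) and LINC00602 (-0.08), had values near 0. Between them and PDE10A lay 15 and 6 annotated genes, which were not tested.
Of the 10 neighbours of LPAR4 on chromosome X, none passed, with PGK1 (-0.04) nearest on one side. ITM2A, which encodes a membrane protein of the integral membrane protein 2 family, was nearest on the other side, with 7 annotated genes between. ITM2A had 9.31 and 9.11 on the control arrays, 9.88 and 9.85 on the Baz2B-KO arrays and a log2 fold change of 0.66 (95% interval 0.38 to 0.94, adjusted p = 0.0845 from limma), in the same direction as LPAR4. With an intensity trend in the variance ITM2A passed (adjusted p = 0.0171), and over all settings its adjusted p lay between 0.0171 and 0.397. The P2Y-like receptor gene GPR174 is also annotated on this chromosome but lay under the limit on all arrays.

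**Figure D4:**
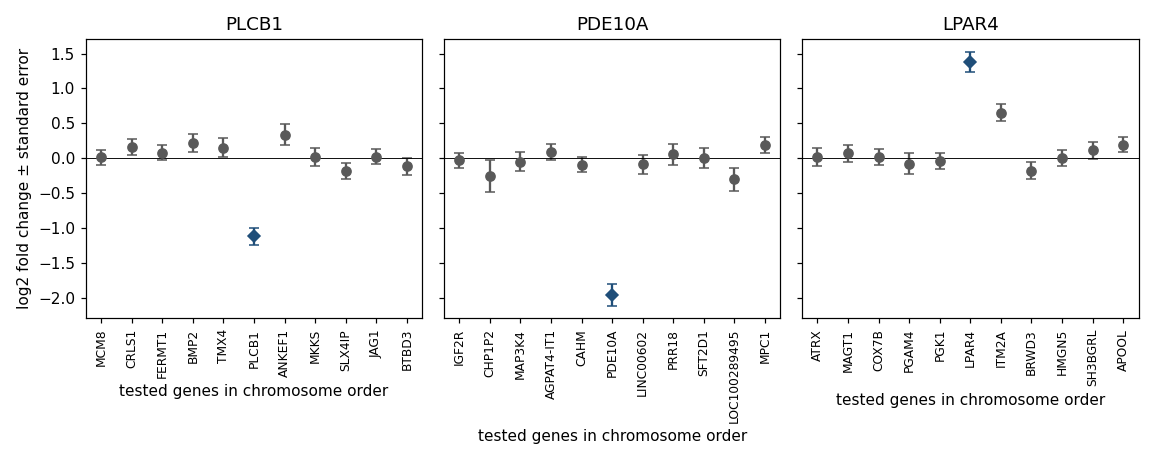
Log2 fold change (Baz2B-KO minus Hap1 control, with its standard error) of PLCB1, PDE10A and LPAR4 (blue diamonds) and of the 5 nearest tested genes on each side (grey circles), in chromosome order and not to scale in distance. The 30 tested neighbours lie between -0.30 and 0.66, and ITM2A, beside LPAR4, is the highest. PLCB4 (-0.48), which lies between PLCB1 and ANKEF1 but is named only by the supplementary table, is not drawn.

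The genes most like the 3 in their pattern were found by the root mean square distance between log2 values over the 4 arrays, each centred on its own mean. Nearest to PLCB1 were ADGRL3, which encodes a latrophilin adhesion receptor, at a distance of 0.032, CYTOR at 0.058 and CYYR1 at 0.069. Nearest to PDE10A were CGAS, the sensor of cytosolic DNA, at 0.048, the oncostatin M receptor gene OSMR at 0.137 and MIR4435-2HG at 0.140. CYTOR and MIR4435-2HG are near-identical copies whose probes may not tell them apart. CGAS had 5.84 and 5.53 in the control and 4.01 and 3.61 in Baz2B-KO. Its difference was -1.88 on the log2 scale, beside -1.95 for PDE10A. Nearest to LPAR4 were HOXD13 at 0.114, PCDHB2 at 0.125 and DLK1 at 0.140. With 4 arrays, this likeness mostly reflects a similar difference between the lines.

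Over the tested probe sets, the arrays of a line correlated at 0.989 in the control and 0.992 in Baz2B-KO. Arrays of different lines correlated at 0.983 to 0.987. By the median absolute difference, the control arrays did not group by line. That difference was 0.148 between the controls and 0.115 between the Baz2B-KO arrays. From Baz2B-KO arrays 1 and 2, control array 1 differed by 0.141 and 0.161, and control array 2 by 0.135 and 0.119. Of 42 listed marker genes of blood, neuronal, mesenchymal, epithelial and endothelial cells, 11 were tested and 0 were called in limma, with 1 at an unadjusted p under 0.05. Of the blood markers, CD14 lay under the limit on all 4 arrays, CD34 was above it on 1 array, at 3.77, and the erythroid factor gene GATA1 was above it. The neuronal marker SYT1 lay under the limit in both lines, between 3.01 and 3.12. The neuronal marker MAP2 had a log2 fold change of -0.10 (adjusted p = 0.917 from limma). The smallest two-sided p of an exact permutation test with 2 arrays a line is 0.333, so single genes were tested only in the fit over all probe sets.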

How the data were processed

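Transcripts were measured on Affymetrix Human Gene 2.0 ST arrays in 2 Hap1 control and 2 Baz2B-KO samples. The authors used oligo and RMA (whose versions are not given in the sources used here), and the deposited values are log2 intensities, 1 for each of 53617 probe sets. Precision is limited by having 4 arrays.

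Following the methods, an intensity above 3.5 on at least 2 arrays was required. The methods named probe sets by Ensembl gene through AnnotationDbi. Here the platform annotation was used instead, which leaves PLCB1 and PDE10A outside the tested table, and the 11235 retained probe sets that it pairs with 1 gene were tested with limma 3.58.1 in R 4.3.3, Baz2B-KO minus Hap1 control, with Benjamini-Hochberg adjustment at 0.05. The fit was tested on data simulated from its own fitted prior with independent noise, which cannot tell how it does with paired or technical arrays. A probe set named only by the held 1999 rows of the supplementary table took its prior from that fit and was adjusted as 1 more test. That table also holds the authors' fold changes and p-values, which were not used. The brightest probe set stood for its gene. The members and gene lists were chosen with earlier results of these data known. Named were the 3 genes, retained genes of their families, called genes and the 2 largest changes of each other list, the nearest neighbours, and the 3 nearest patterns. PLCL2 follows from the list rule, and ITM2A is both a nearest neighbour and the largest change among neighbours. Unretained genes, GPR174 and the markers were named after their values were seen. No list test was run. Figures were drawn with matplotlib 3.10.9. Alternatives were other filters, all retained probe sets, an intensity trend, robust eBayes, a replicate block, 2 scalings, each array left out, and probe sets averaged by gene. No column of the deposited table was left out.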

Additional observations from a re-analysis of the deposited data

How the results depend on the processing

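The changes of the 3 chosen genes kept their direction under both scalings and without any 1 array, which their choice on these arrays makes likely and which is no independent support. Without 1 array the log2 fold change lay between -1.22 and -1.01 for PLCB1, between -2.11 and -1.80 for PDE10A and between 1.18 and 1.58 for LPAR4. The count of called probe sets, 31 higher and 44 lower, was 16 and 25 with no intensity filter and 4 and 22 with all retained probe sets. It was 0 and 0 without Hap1 control replicate 1 or without Hap1 control replicate 2, 13 and 25 without Baz2B-KO replicate 1 and 15 and 27 without Baz2B-KO replicate 2. A fit of 3 arrays leaves 1 array of a line, which is assumed to vary like the other line. Called pathway genes, 1 higher and 0 lower, were 0 and 0 with all retained probe sets and without any 1 array, and the same as before in the other settings.

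With a block for the replicate number, 13 probe sets were higher and 25 lower, ENPP2 was still called (adjusted p = 0.0463 from limma) and GUCY1A1 was not. The deviations of same-numbered arrays correlated at 0.158 over the tested probe sets, but with 2 pairs this does not show that the numbers pair the samples. A mark in the array names of the supplementary table is shared by same-numbered arrays of both lines, and its meaning is not given there, so a pairing cannot be told from these sources.

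Of 465 values for 42 single probe sets, 443 kept their direction and their side of the threshold, 12 were no longer past it, 1 newly passed (ITM2A) and 9 changed sign, all of them small and in fits without 1 array. Without 1 array, the log2 fold change ranged from -0.057 to 0.119 for PLCL2, from -0.195 to 0.163 for PDE7A, from -0.118 to 0.127 for PDE8A, from -0.0197 to 0.097 for GNAS, from -0.209 to 0.046 for LINC00602 and from -0.079 to 0.0077 for PGK1. The probe sets named only by the supplementary table were not fitted with the intensity trend or robust eBayes. Signal near the background limits what can be said of LPAR4 in the control and of PDE10A in Baz2B-KO.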
